A study of Mus musculus with 5 samples.

Results

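The protocadherins are the largest family of cadherin-related adhesion proteins, and their transcripts were followed here in cells sorted from the fetal mouse urinary tract. Every gene row whose symbol begins with Pcdh was taken, which gave 62 of the 18044 gene rows of the deposited expression table. Of these, 50 belong to the 3 gene clusters, with 7 Pcdha (alpha), 21 Pcdhb (beta) and 22 Pcdhg (gamma) genes, and 12 lie outside the clusters. A row was included by its name alone, so no measured value played a part in the choice.

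Libraries came from C57BL/6 wild-type embryos at stage E18.5, shortly before birth. The junctions between renal pelvis and kidney were dissected from all embryos of the dams, pooled, dispersed with collagenase and stained with an antibody to the pacemaker channel HCN3, and stained and unstained cells were separated by flow cytometry. The study set HCN3-positive cells, described as the urinary tract's pacemaker cells, against HCN3-negative cells, with 2 libraries labelled HCN3-positive and 3 labelled HCN3-negative. The labels do not say whether the libraries of a group came from separate pools of embryos or separate sorts, so the p-values below measure the spread between these libraries, which may be technical.

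Clustered protocadherins work as a surface barcode. In the alpha and gamma clusters, each variable exon has its own promoter and encodes a whole extracellular domain, and it is spliced to constant exons that all genes of the cluster share. Beta genes have no such constant exons. A neuron switches on a small, largely random set of these promoters, with the C-type genes at the ends of the alpha and gamma clusters under less random control, and the proteins then bind matching copies on neighbouring cells. Protocadherins outside the clusters, most of them called delta-protocadherins, are single genes with their own tissue patterns. They bind weakly between cells and act through the cytoskeleton and through other cadherins.

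The libraries held 24588864 to 39034478 reads assigned to genes, and 15667 to 17538 genes had at least 1 read. The values are normalized read counts, that is, reads divided by a size factor for each library, and 3 reads, taken as the limit that a count of 0 allows, correspond to 2.23 to 4.23 normalized counts. These limits cover counting error only. The transcript of the sorted protein, Hcn3, had a normalized count of 0 in HCN3-positive 1 and 44.5 in HCN3-positive 2, against 103, 32.2 and 41.9 in HCN3-negative 1, 2 and 3, so it did not separate the labels. The authors' deposited table also carries a fold change of its own, and its 2 means are those of other groups than the labels give: HCN3-positive 1 with HCN3-negative 2 (called the first set here), and HCN3-positive 2 with HCN3-negative 1 and HCN3-negative 3 (the second set). This division gave the deposited fold within a tolerance of 0.01 in 100% of the 16898 rows with a finite fold, while the next best division did so in 3.21%. The table does not say which set is HCN3-positive, so libraries are named by their labels and both comparisons are given. Hcn3 did not overlap between the sets, with 0 and 32.2 in the first and 44.5, 103 and 41.9 in the second. Of all genes tested below, 26.1% likewise had every second-set library above both first-set libraries, so this does not tell which set is HCN3-positive. Summed markers of leukocytes and macrophages were 570627 and 634993 normalized counts in the first set and 1512 to 3616 in the second.

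Between the labelled groups no protocadherin passed the test. Differences were tested with limma on log2(normalized count + 1) over the 16579 genes that reached an average of 5, and p-values were adjusted by the Benjamini-Hochberg method, a gene being called at an adjusted p under 0.05. The filter left 56 of the 62 members. None of the 56 passed, by limma, edgeR or DESeq2, and none had an unadjusted p under 0.05 by any of these tools. Over all genes tested, limma and edgeR called 0% each and DESeq2 called 0.0603% in either direction, and the shares with an unadjusted p under 0.05 were 0.947%, 0.995% and 2.8%. None of the 56 had HCN3-positive libraries all above or all below the HCN3-negative ones, whereas 5.34% of all genes were fully higher and 5.44% fully lower.

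For several of the most counted members the spread within a label was close to the mean or above it. Pcdh18 had 2169 ± 2887 normalized counts in HCN3-positive (SD, n = 2) and 3168 ± 2390 in HCN3-negative (SD, n = 3). Pcdhgc3 had 486 ± 625 and 969 ± 688 in the same order, and Pcdh12 had 596 ± 447 and 1874 ± 1953. The smallest unadjusted p, 0.137, was that of Pcdhac2, whose log2 difference (HCN3-positive minus HCN3-negative, here and below on the log2(normalized count + 1) scale) was -2.78 with a standard error of 1.59 (limma adjusted p = 1.00). Median differences were -1.64 for the 44 clustered members tested and -0.96 for the 12 others, with -0.03 over all genes. The signs turned with HCN3-positive 1 left out: the medians were then 0.43 and 0.91, and without HCN3-positive 2 they were -3.86 and -1.86. Leaving out HCN3-negative 2 gave -2.89 and -1.78, and leaving out HCN3-negative 3 gave -1.05 and -0.50. Without HCN3-positive 1 the log2 difference of Pcdh18 went from -1.60 to 0.92, that of Pcdhgc3 from -1.76 to 0.43, that of Pcdh9 from -3.06 to 1.18 and that of Pcdhb17 from -3.70 to 0.19.

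Between the 2 sets of the deposited table, 19 of the 56 members tested were higher in the second set (limma), and none was lower. Over all genes tested 9.88% were higher and 10.6% lower. The 19 comprised 13 of 44 clustered members (0 of 2 alpha, 7 of 20 beta, 6 of 22 gamma) and 6 of the 12 outside the clusters. The median log2 difference (second set minus first set) was 3.81 for the clustered members and 2.76 for the others, with 0.07 over all genes. With the 9 tested members that had 0 reads in both first-set libraries held at their lower bound, these medians were 3.66 and 2.40. Without HCN3-positive 1 the median was 2.30 for the clustered members and 2.64 for the others, so the order of the 2 groups turned.

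Levels were apart more often than the test called. In 38 of the 56 members (29 clustered, 9 others) all 3 second-set libraries lay above both first-set libraries, and in none did they lie below, against 26.1% and 23.5% of all genes. The difference was above 0 in 54 members, and the exceptions were Pcdhb2 and Pcdhgb1. Of the 56, 15 had a mean under 5 in the first set and entered the test through their second-set level, so their upward difference was built in. They include 7 of the 19 called, namely Pcdh20, Pcdhb7, Pcdhb10, Pcdhb12, Pcdhb18, Pcdhgb2 and Pcdhgb8. The shares above are therefore a description of the family and not support for its direction. The count of 19 was 9 without HCN3-positive 1, 9 without HCN3-positive 2, 7 without HCN3-negative 1, 27 without HCN3-negative 2 and 9 without HCN3-negative 3. Other tools gave other counts: edgeR called 11 of the same 56 (7.08% of all genes higher), DESeq2 called 26 (13.7%), and the authors' deposited table called 17 of the 62 (6.09%), all higher in the second set. Limma, edgeR, DESeq2 and the deposited table shared 8 calls, namely Pcdh1, Pcdh18, Pcdhb5, Pcdhb7, Pcdhb10, Pcdhb12, Pcdhgb6 and Pcdhgc3. Of the 19, Pcdh18, Pcdhb7, Pcdhgb6 and Pcdhgc3 passed in each of the 12 alternative fits.

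**Figure D1:**
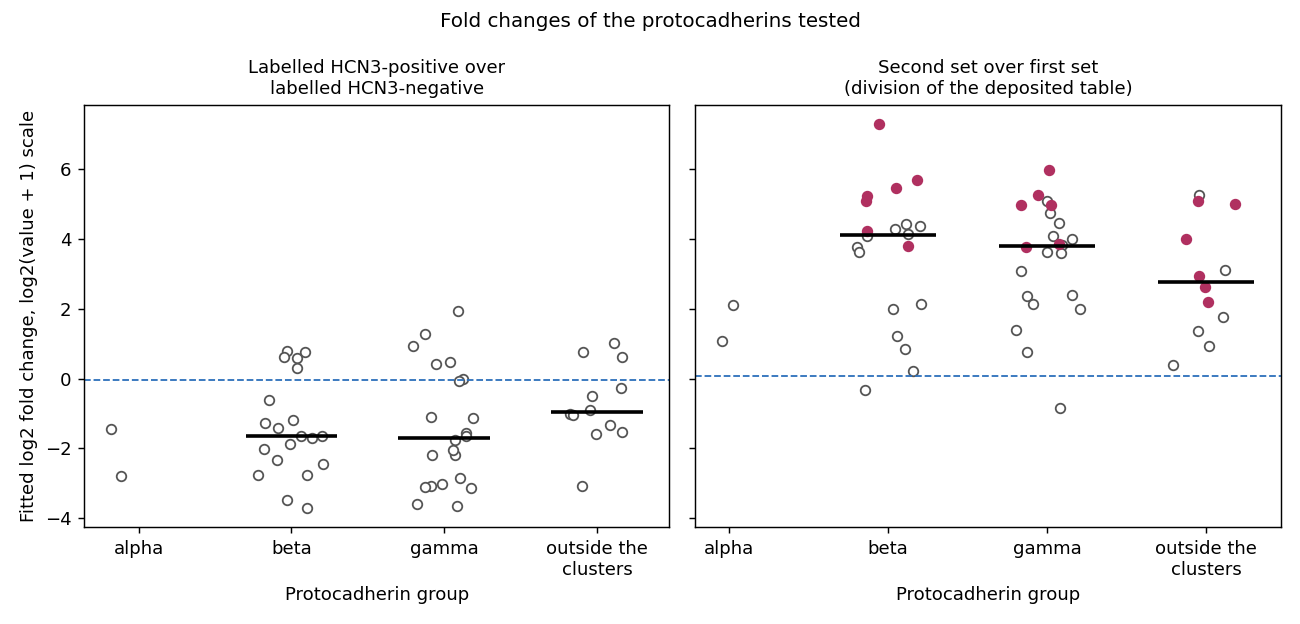
Fitted log2 difference (vertical axis, log2(normalized count + 1) scale) of each of the 56 protocadherins tested, by cluster, between the labels (left) and between the sets (right). Filled points passed limma at an adjusted p of 0.05, black bars are group medians (not drawn for alpha) and the dashed line is the median of all genes tested; on the left no point is filled, and on the right 19 are, all above the line.

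Cells of many kinds express the genes outside the clusters, and these gave the highest levels of the family. Pcdh18, a delta-2 protocadherin studied in mesenchyme and axon growth, is on chromosome 3 (49743296 to 49757325, minus strand, mm10, GENCODE M21). Its promoter is shown with those of Pcdh17, Pcdh8 and Pcdh20, which were also called higher in the second set. The promoters of Pcdh1 and Pcdh12, called as well, are not shown. Each is the 250 bases before the RefSeq start (GRCm38.p6), read 5′ to 3′ on the gene's strand, at chr3:49757317-49757566 (minus), chr14:84443313-84443562 (plus), chr14:79771313-79771562 (minus) and chr14:88471397-88471646 (minus) in that order. Capitals mark the CCAAT box, as CCAAT or, on the other strand, ATTGG.
Pcdh18: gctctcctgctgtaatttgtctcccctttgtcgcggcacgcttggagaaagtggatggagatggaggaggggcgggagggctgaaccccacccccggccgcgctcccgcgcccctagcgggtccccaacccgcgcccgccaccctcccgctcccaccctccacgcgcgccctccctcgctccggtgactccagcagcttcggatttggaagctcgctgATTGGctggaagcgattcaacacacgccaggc
Pcdh17: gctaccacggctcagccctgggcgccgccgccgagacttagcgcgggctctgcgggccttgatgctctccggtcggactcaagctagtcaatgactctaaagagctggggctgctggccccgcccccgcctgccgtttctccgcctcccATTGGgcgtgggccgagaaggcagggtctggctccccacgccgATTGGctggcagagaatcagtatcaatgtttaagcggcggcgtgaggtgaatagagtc
Pcdh8: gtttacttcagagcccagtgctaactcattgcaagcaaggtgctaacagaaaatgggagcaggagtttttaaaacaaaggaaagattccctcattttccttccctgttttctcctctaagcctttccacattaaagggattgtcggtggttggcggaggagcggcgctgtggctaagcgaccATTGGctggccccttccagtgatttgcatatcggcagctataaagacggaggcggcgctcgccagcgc
Pcdh20: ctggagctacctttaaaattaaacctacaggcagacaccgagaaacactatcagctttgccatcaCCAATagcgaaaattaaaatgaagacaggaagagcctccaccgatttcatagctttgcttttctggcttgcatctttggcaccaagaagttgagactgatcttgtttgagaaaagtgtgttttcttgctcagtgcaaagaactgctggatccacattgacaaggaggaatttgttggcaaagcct

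The box lay 32 bases before the start in Pcdh18, 101 and 58 bases in Pcdh17, 68 bases in Pcdh8 and 185 bases in Pcdh20. It was found in 8 of the 9 member promoters searched, and Pcdh7 was the one without it in this window. Promoters on chromosome 18 were not searched, so this does not cover the clustered genes, Pcdh1 or Pcdh12. Of all 27025 mouse promoters of the same length, 34.5% held it on either strand. Those promoters had a median of 6 CG pairs against 16 in the 9 member promoters, so the sequences compared are not alike. The motif was chosen after the sequences had been seen, and a match describes letters and not a bound site.

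Pcdh18 had normalized counts of 128 in HCN3-positive 1 and 577 in HCN3-negative 2, against 4211, 5285 and 3642 in HCN3-positive 2, HCN3-negative 1 and HCN3-negative 3. The sets were far apart, with every second-set library above both others. The log2 difference was 3.98 with a standard error of 0.59 (limma adjusted p = 0.0049), and the ratio of means was 12.4-fold. Without HCN3-negative 2 the ratio was 34.1-fold and without HCN3-positive 1 it was 7.59-fold, with log2 differences from 2.90 to 5.07 over the fits that leave out 1 library. Per kilobase of exon that no other gene shares, its mean over the 5 libraries was 516, the highest among members with a gene model.

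Other delta-2 genes were lower in level. Pcdh17 (chromosome 14, 84443563 to 84539002, plus strand), which has roles in axon outgrowth and synapse assembly, had 426 and 333 in HCN3-positive 1 and HCN3-negative 2 and 970, 1631 and 3267 in HCN3-positive 2, HCN3-negative 1 and HCN3-negative 3. These did not overlap, and HCN3-negative 3 was the highest. The log2 difference was 2.20 (SE 0.50, limma adjusted p = 0.0237), and the adjusted p was 0.0819 to 0.125 without HCN3-positive 1, HCN3-negative 1 or HCN3-negative 2.

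Pcdh8 (chromosome 14, 79766775 to 79771312, minus strand), known for its part in synaptic remodelling, had 0 and 11.1 in HCN3-positive 1 and HCN3-negative 2, against 216, 61.5 and 99.5 in the second set in the order above. That was a log2 difference of 4.99 (SE 1.26, limma adjusted p = 0.0332), which held in 7 of the 12 alternative fits: the adjusted p was 0.0785 to 0.135 without HCN3-positive 1, HCN3-positive 2, HCN3-negative 1 or HCN3-negative 3. Pcdh19, an X-linked gene known for human epilepsy, had 70.5 and 239 in the first set and 432, 390 and 506 in the second, without overlap, and missed the threshold (log2 difference 1.75, SE 0.59, limma adjusted p = 0.0826). Pcdh10 was near its floor in most libraries, at 5.64, 9.64, 33.0, 1.11 and 0 in HCN3-positive 1 and 2 and HCN3-negative 1, 2 and 3, and its sets overlapped (limma adjusted p = 0.748).

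Delta-1 genes, which carry an additional conserved cytoplasmic stretch, gave a single call. Pcdh1 (chromosome 18, 38185914 to 38212053, minus strand), found in airway epithelium and endothelium, had 179 and 69.9 in HCN3-positive 1 and HCN3-negative 2 and 406, 760 and 1047 in HCN3-positive 2, HCN3-negative 1 and HCN3-negative 3. The sets did not overlap, the log2 difference was 2.60 (SE 0.60, limma adjusted p = 0.0242), and the ratio of means was 5.93-fold (10.6-fold without HCN3-positive 1). Its adjusted p was 0.0736 to 0.103 without HCN3-negative 1, 2 or 3.

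Pcdh9 (chromosome 14, 93013410 to 93890679, minus strand) had 0 and 57.7 in HCN3-positive 1 and HCN3-negative 2, and 358, 284 and 236 in the second set in the same order. No library of the second set fell to the first-set range, yet the first set itself was split and the test missed (log2 difference 5.24, SE 1.58, limma adjusted p = 0.0603). Pcdh7 had 352 and 151 against 889, 943 and 252, so that HCN3-negative 3 lay below HCN3-positive 1 and the sets overlapped (log2 difference 1.36, SE 0.69, limma adjusted p = 0.223). Pcdh11x, on the X chromosome, was found in 0, 28, 10, 0 and 2 reads in HCN3-positive 1 and 2 and HCN3-negative 1, 2 and 3 (limma adjusted p = 0.146).

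Pcdh12 (chromosome 18, 38267089 to 38284402, minus strand), a protocadherin of endothelial junctions, had 281 and 185 in HCN3-positive 1 and HCN3-negative 2, against 912, 1424 and 4013 in the second set in the order above. HCN3-negative 3 was the highest for this gene and for the summed endothelial markers (114744, with 32028 and 50787 in the 2 other second-set libraries and 7271 to 8098 in the first set). Its log2 difference was 2.92 (SE 0.61, limma adjusted p = 0.0180), with an adjusted p of 0.0601 to 0.112 without HCN3-positive 1, HCN3-negative 1 or HCN3-negative 2. Per kilobase of exon of its own, its mean was 225, the third of the family after Pcdh18 and Pcdhgc3. The place of Pcdhgc3 in this order depends on how reads in shared exons were counted, which is not stated. The part of endothelial cells in the difference of Pcdh12 was not tested.

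Pcdh20 (chromosome 14, 88464743 to 88471396, minus strand) had 0 reads in both first-set libraries and 21.5, 97.1 and 16.7 normalized counts in HCN3-positive 2, HCN3-negative 1 and HCN3-negative 3. Against the mean of 3 reads in the first-set libraries this was at least 11.9-fold higher (at least 5.06-fold without HCN3-negative 1), with a limma adjusted p of 0.0235. Without HCN3-positive 1, HCN3-positive 2, HCN3-negative 1 or HCN3-negative 2 it rose to between 0.0640 and 0.0873. The upward difference of Pcdh20 was built in, as it entered the test through its second-set level. Pcdh15, which with Cdh23 forms the tip links of hair cells, had 11.3 and 9.99 in the first set and 11.1, 49.0 and 4.65 in the second, and the sets overlapped (limma adjusted p = 0.861).

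**Figure D2:**
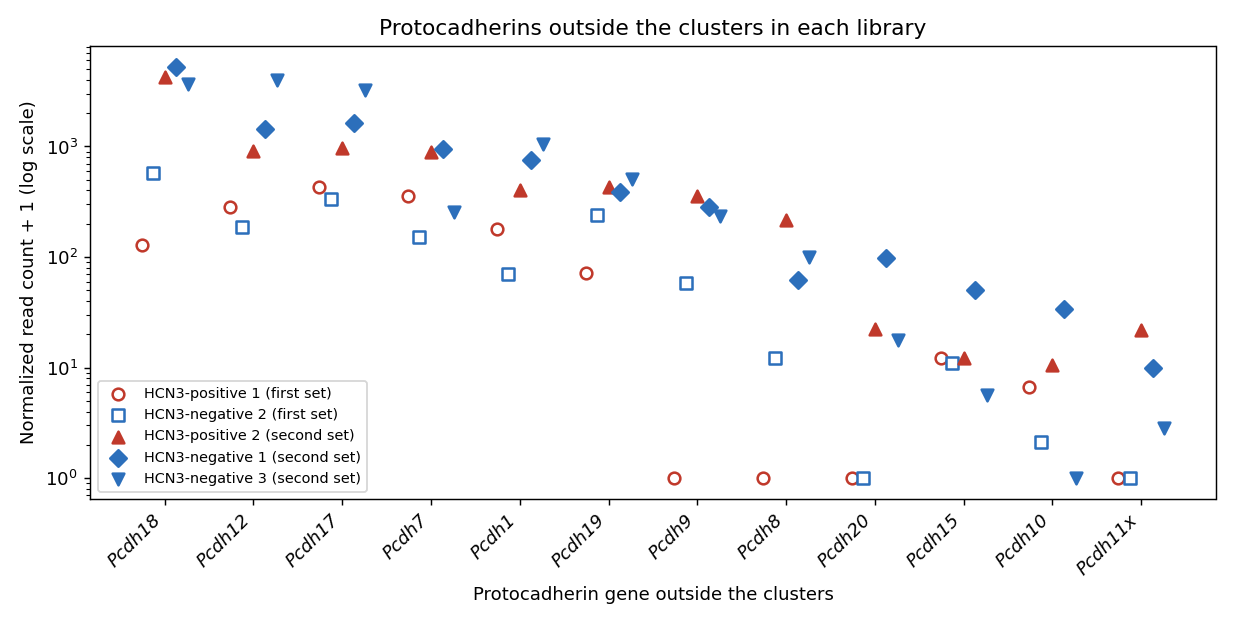
Normalized count plus 1 (log axis) of the 12 protocadherins outside the clusters in each library, with the libraries of the first and second set marked. For Pcdh18, Pcdh17, Pcdh12 and Pcdh1 the 3 second-set libraries lie above both first-set libraries, whereas for Pcdh15, Pcdh10 and Pcdh7 they overlap.

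The gamma cluster supplied most clustered reads. Its 22 genes summed to 751 and 589 normalized counts in HCN3-positive 1 and HCN3-negative 2, and to 3025, 4269 and 5125 in HCN3-positive 2, HCN3-negative 1 and HCN3-negative 3, a ratio of means of 6.18-fold. Counts of clustered genes are uncertain in one respect: alpha and gamma genes share constant exons, reads in shared exons belong to several genes, and the sources used here do not state how the counter treated them. Reads that overlapped several genes were 0.792% to 2.32% of all reads in the table, summary rows included, with the highest share in HCN3-negative 3. Protocol labels do not state that strand was kept.

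Among the C-type genes, which are under less random control than the rest, Pcdhgc3 (chromosome 18, 37806364 to 37841873, plus strand, mm10) led. It had 43.7 and 174 in HCN3-positive 1 and HCN3-negative 2, and 928, 1371 and 1362 in HCN3-positive 2, HCN3-negative 1 and HCN3-negative 3. The 3 second-set libraries were close to one another and none reached down to the first set. This was a log2 difference of 3.76 (SE 0.61, limma adjusted p = 0.0068) and a ratio of means of 11.2-fold, and its mean of 426 per kilobase of unshared exon was second in the family. The ratio was 27.9-fold without HCN3-negative 2 and 7.0-fold without HCN3-positive 1, and the log2 difference lay between 2.78 and 4.75 with 1 library left out.

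Pcdhgc4 had 0 and 41.1 in the first set and 137, 305 and 250 in the second in the same order. Although the sets did not overlap it missed the threshold (log2 difference 5.08, SE 1.51, limma adjusted p = 0.0577). Pcdhgc5 was low throughout, with 0 and 2.22 against 9.64, 8.02 and 35.3 (limma adjusted p = 0.124). The only C-type gene of the alpha cluster with a row, Pcdhac2, had 0 and 46.6 against 10.4, 30.3 and 7.44, so that HCN3-negative 2 lay above every second-set library (limma adjusted p = 0.715).

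Of the gamma-B genes, Pcdhgb6 had the highest mean, with 63.4 and 16.6 in HCN3-positive 1 and HCN3-negative 2 and 401, 411 and 678 in HCN3-positive 2, HCN3-negative 1 and HCN3-negative 3. The sets were clearly apart, with a log2 difference of 3.84 (SE 0.69, limma adjusted p = 0.0102). Pcdhgb7 had 0 and 16.6 against 189, 245 and 378 (5.96, SE 1.25, adjusted p = 0.0178, and 0.0588 to 0.0700 without HCN3-positive 2, HCN3-negative 1 or HCN3-negative 3). Pcdhgb2 had 0 and 6.66 against 110, 60.6 and 174 (5.26, SE 1.13, adjusted p = 0.0197, and 0.0541 to 0.0865 without any library but HCN3-negative 2). These 2 genes repeat the order of the sets seen for Pcdhgb6, at lower levels. Pcdhgb2 and, below, Pcdhgb8 entered the test through their second-set level, so their upward difference was built in. Pcdhgb8 had 1.41 and 0 in the first set, from 1 read in all, and 15.6, 119 and 54.0 in the second (limma adjusted p = 0.0283, and 0.0752 to 0.0955 without any library but HCN3-positive 2). Pcdhgb1 ran the other way in its fitted value but did not pass (74.7 and 16.6 against 24.5, 4.45 and 61.4; log2 difference -0.83, SE 1.28, limma adjusted p = 0.703).

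Of the gamma-A genes Pcdhga11 alone passed, with 0 and 27.7 in the first set and 131, 252 and 140 in the second (log2 difference 4.97, SE 1.41, limma adjusted p = 0.0490, and 0.0901 to 0.155 without any library but HCN3-negative 2). Pcdhga12 had 151 in HCN3-positive 1 and 11.1 in HCN3-negative 2, against 106, 233 and 267. Pcdhga5 had 144 and 0, against 119, 274 and 152. In both, HCN3-positive 1 lay above HCN3-positive 2, and neither passed (limma adjusted p = 0.235 and 0.216). Pcdhga3 had 74.7 and 16.6 against 125, 257 and 213, with no overlap (log2 difference 2.38, SE 0.81, adjusted p = 0.0848). Pcdhga7, with 0 and 58.8 against 157, 205 and 274, was close to it (adjusted p = 0.0845).

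The 21 beta genes summed to 261 and 395 normalized counts in HCN3-positive 1 and HCN3-negative 2, and to 1464, 1704 and 2403 in HCN3-positive 2, HCN3-negative 1 and HCN3-negative 3, a ratio of means of 5.66-fold. Pcdhb17 was the most counted, with 0 and 41.1 in the first set and 219, 397 and 427 in the second. It passed, with a log2 difference of 5.69 (SE 1.49, limma adjusted p = 0.0379, and 0.0506 to 0.123 without any library but HCN3-negative 2).

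Some beta genes had no read, or a single one, in the first set. Those tested entered the test through their second-set level, so their upward difference was built in. Pcdhb7 had no read in either first-set library and 131, 123 and 229 normalized counts in the second set, at least 42.5-fold higher (limma adjusted p = 0.0022). Pcdhb10 had none against 21.5, 101 and 35.3, at least 13.9-fold higher (at least 7.52-fold without HCN3-negative 1; adjusted p = 0.0145, and 0.0529 to 0.0589 without HCN3-positive 1 or HCN3-negative 1). Pcdhb18 had none against 25.2, 26.7 and 68.8, at least 10.7-fold higher (at least 6.87-fold without HCN3-negative 3; adjusted p = 0.0139, and 0.0504 to 0.0594 without HCN3-positive 1, HCN3-positive 2 or HCN3-negative 3). A count of 0 here allows up to 4.23 in HCN3-positive 1 and 3.33 in HCN3-negative 2, so low levels were not detectable at this depth. Pcdhb12 had 0 and 1.11 against 26.0, 110 and 39.1 (adjusted p = 0.0180, and 0.0559 to 0.0774 without HCN3-positive 1, HCN3-positive 2 or HCN3-negative 1). Pcdhb6, Pcdhb11 and Pcdhb15 had no read in the first set either and did not pass (limma adjusted p = 0.223, 0.215 and 0.0596). Pcdhb6 and Pcdhb11 also had no read in HCN3-negative 1.

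Pcdhb5 and Pcdhb9 passed as well. Pcdhb5 had 4.23 and 9.99 against 64.5, 132 and 132 (log2 difference 3.79, SE 0.83, adjusted p = 0.0204, and 0.0603 to 0.0842 without any library but HCN3-negative 2). Pcdhb9 had 1.41 and 23.3 against 105, 202 and 130 (4.21, SE 1.10, adjusted p = 0.0380, and 0.0913 to 0.131 without any library but HCN3-negative 2).

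Several well-counted beta genes did not pass. Pcdhb20 had 0 and 86.6 against 183, 104 and 373, with the sets apart (limma adjusted p = 0.138). Pcdhb19 had 109 and 62.2 against 127, 43.7 and 158, with full overlap and a log2 difference of 0.22 (SE 0.78, limma adjusted p = 0.878). Pcdhb14 had 100 and 16.6 against 66.8, 68.6 and 89.3, and HCN3-positive 1 was the highest library of all (limma adjusted p = 0.576). Pcdhb19 and Pcdhb14 thus kept a level in HCN3-positive 1 close to that of the second set.

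The alpha cluster was hardly measured. Only 7 of its genes had a row, and others, such as Pcdhac1, had none, so the sums cover a part of the cluster. The 7 summed to 1.41 and 46.6 normalized counts in the first set and 26.7, 74.8 and 24.2 in the second, with a ratio of means of 1.75 and overlapping sets. That ratio was 29.7 without HCN3-negative 2, 0.90 without HCN3-positive 1 and 1.06 without HCN3-negative 1. Only Pcdhac2 and Pcdha10 reached the mean of 5 needed for the test, and Pcdha10 did so through HCN3-negative 1 alone (0, 0.74, 44.5, 0 and 0 in HCN3-positive 1 and 2 and HCN3-negative 1, 2 and 3; limma adjusted p = 0.483). The members not tested were Pcdha5, Pcdha7, Pcdha9, Pcdha11, Pcdha12 and Pcdhb13, none above 6.51 in any library.

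**Figure D3:**
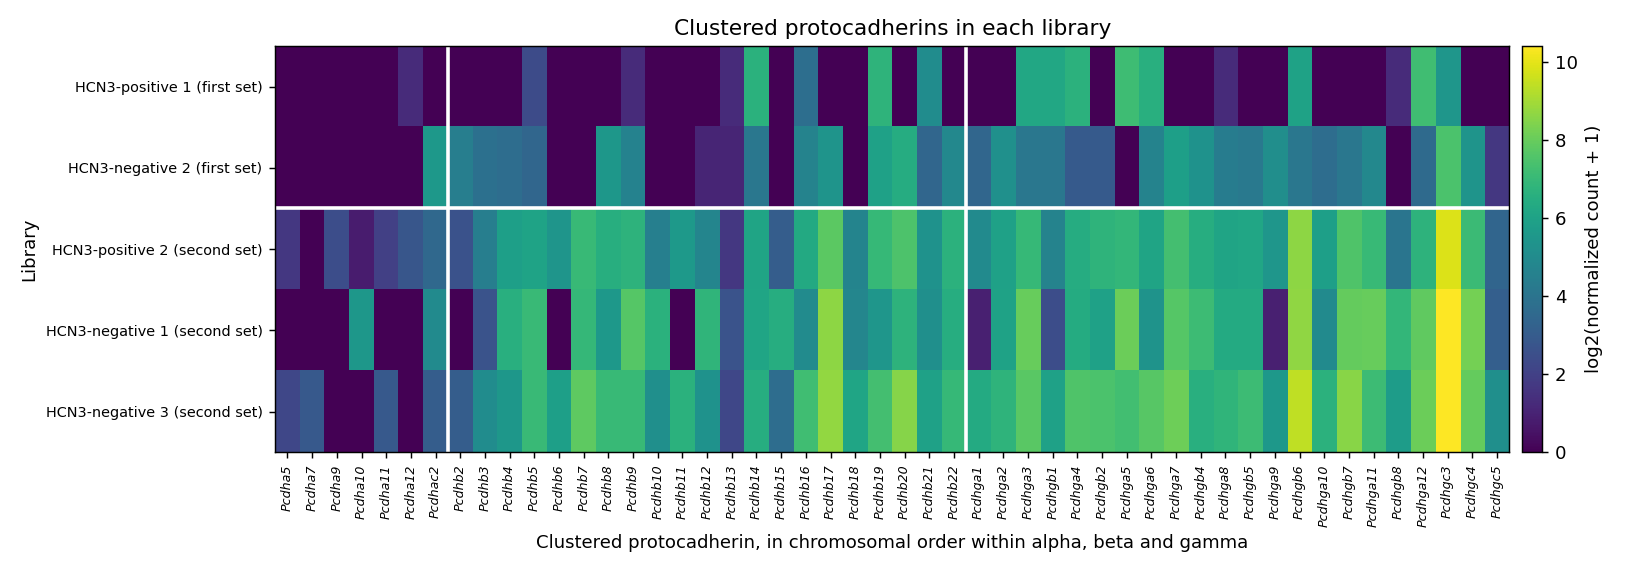
Log2(normalized count + 1) of the 50 clustered protocadherins (columns, in chromosomal order within alpha, beta and gamma) in the 5 libraries (rows, the 2 first-set libraries above the line). HCN3-positive 1 shows a few bright beta and gamma genes among many at 0, and HCN3-negative 2 shows more genes at lower levels. The 3 second-set libraries are filled across most of beta and gamma, but HCN3-negative 1 has no read for Pcdhb2, Pcdhb6 or Pcdhb11.

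The 2 first-set libraries had nearly equal sums of clustered counts, spread over different numbers of genes and with different leading genes. The 50 clustered genes summed to 1014 normalized counts in HCN3-positive 1 and 1031 in HCN3-negative 2, from 719 and 929 reads. In HCN3-positive 1, 12 of the 50 reached a normalized count of 5 and 32 had no read, whereas in HCN3-negative 2, 33 reached 5 and 14 had no read. The 5 most counted genes took 59.8% of the clustered total in HCN3-positive 1 (Pcdhga12, Pcdhga5, Pcdhb19, Pcdhga4 and Pcdhb14). In HCN3-negative 2 its own 5 took 41.6% (Pcdhgc3, Pcdhb20, Pcdhb19, Pcdhga7 and Pcdhac2), with Pcdhb19 in both. Of the 5 in HCN3-positive 1, Pcdhga5 alone had no read in HCN3-negative 2. Pcdhga12, Pcdhga4 and Pcdhb14 had 11.1, 6.66 and 16.6 there.

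Second-set libraries were alike in number. They had 4515, 6047 and 7551 normalized counts and 44, 39 and 45 genes at 5 or more in HCN3-positive 2, HCN3-negative 1 and HCN3-negative 3. HCN3-positive 2 and HCN3-negative 3 had the same 5 leading genes, Pcdhgc3, Pcdhgb6, Pcdhb17, Pcdhgb7 and Pcdhb20, with 42.5% and 42.6% of the total. In HCN3-negative 1, Pcdhgc4 and Pcdhga5 stood in the places of Pcdhgb7 and Pcdhb20.

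As a description over the 44 clustered genes tested, Spearman's rho between HCN3-positive 1 and HCN3-negative 2 was 0.010, although over all 16579 genes it was 0.951 for that pair. Between HCN3-positive 2 and HCN3-negative 3 it was 0.940 (0.958 over all genes), between HCN3-positive 2 and HCN3-negative 1 it was 0.709 (0.974), and between HCN3-negative 1 and HCN3-negative 3 it was 0.640 (0.954). HCN3-negative 2 was nearer to HCN3-positive 2, at 0.50, than to HCN3-positive 1. The genes of a library share its depth and its cells, HCN3-positive 1 had the fewest reads, and the part of sampling at these low counts was not tested.

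**Figure D4:**
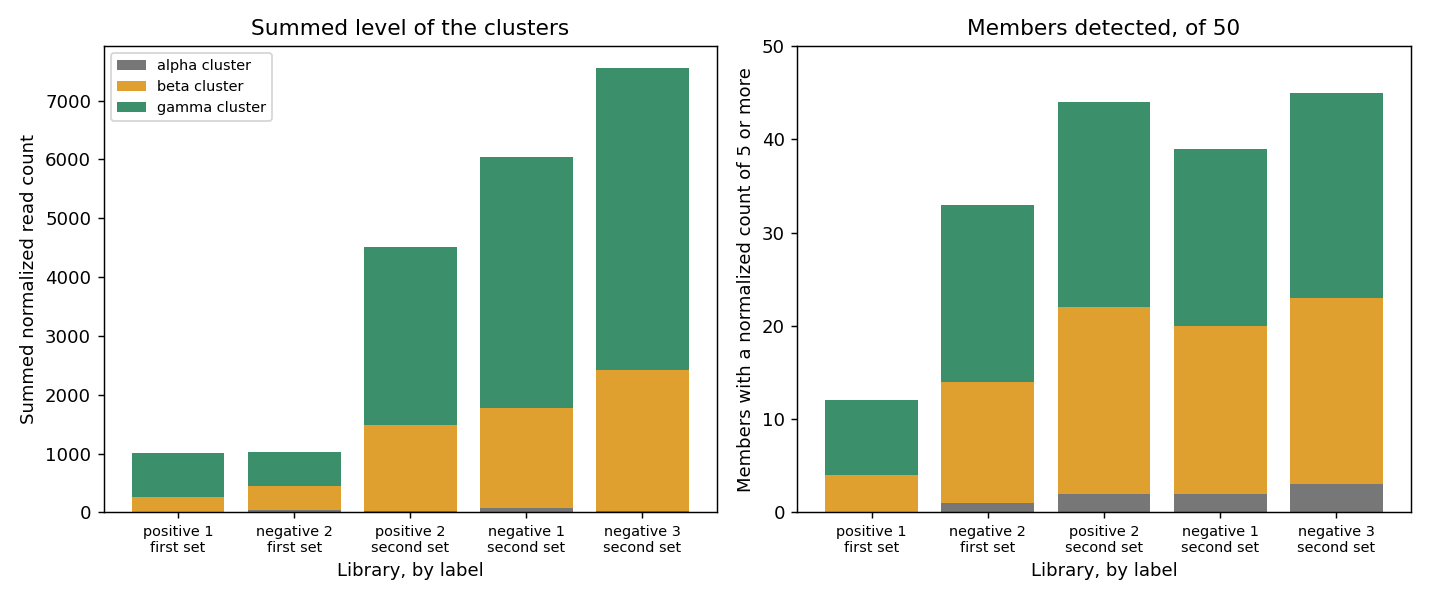
Left, summed normalized count of the alpha, beta and gamma clusters in each library, stacked; right, the number of the 50 clustered genes with a normalized count of 5 or more, stacked in the same way. The first-set libraries have nearly equal sums, 1014 and 1031, but 12 and 33 genes, and the second-set libraries exceed both in sum and in number.

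Clustered and other members can be set side by side without a test. The 12 genes outside the clusters summed to 1453 and 1635 normalized counts in the first set and 8456, 10967 and 13086 in the second, a ratio of means of 7.02-fold, beside 5.91-fold for the clustered genes. In both groups the 2 first-set libraries lay close together in sum and below each of the others. Whether the groups differ in their response was not tested.

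Genes known to control or accompany protocadherins were taken from 5 lists. None of the 15 tested regulators of cluster promoter choice and chromatin looping passed between the sets, in either direction (median log2 difference 0.14), which compares with 20.5% of all genes called in either direction. The 2 with the smallest p were Smchd1, a chromatin silencer of these clusters (4257 and 6003 against 2898, 3969 and 3148, limma adjusted p = 0.119), and Rad21, a subunit of cohesin (3052 and 1967 against 3308, 3872 and 4311, adjusted p = 0.125).

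A list of 16 cytoplasmic partners held mainly kinases and the WAVE complex that couples delta-protocadherins to actin, with Ppp1ca, Axin1 and Ctnnb1 besides. Of the 16, 5 were higher and 5 lower in the second set (median 0.07). Over all genes tested 9.88% were higher and 10.6% lower. The focal adhesion kinase Ptk2 was higher (1634 and 1957 against 4963, 6352 and 6699, adjusted p = 0.0024), and its relative Ptk2b, common in blood cells, was lower (2890 and 1650 against 134, 147 and 119, adjusted p = 0.0012). The WAVE members Abi1 (7299 and 5455 against 1748, 2666 and 2239, adjusted p = 0.0070) and Cyfip1 (14522 and 21874 against 6662, 6960 and 8507, adjusted p = 0.0098) were lower too. Nckap1, also of the WAVE complex, was higher (6202 and 4139 against 10072, 11516 and 13158, limma adjusted p = 0.0134). Wasf3 had no read in the first set, so its upward difference was built in. Both kinases bind clustered protocadherins and moved in opposite directions. Among 6 tip-link partners of Pcdh15, 1 passed, the motor Myo7a, which was lower (5001 and 6252 against 729, 870 and 1891, adjusted p = 0.0086).

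Other cadherins were called in part, beside 9.88% higher and 10.6% lower over all genes. Of 14 classical and type II cadherins 5 were higher and none lower (median 2.42), among them the mesenchymal Cdh11 (295 and 1148 against 7727, 11793 and 7383, adjusted p = 0.0040), N-cadherin or Cdh2 (131 and 340 against 1425, 1246 and 802, adjusted p = 0.0161), the endothelial Cdh5 (361 and 186 against 798, 1163 and 2925, adjusted p = 0.0299) and Cdh13 (0 and 0 against 157, 143 and 73.5, adjusted p = 0.0030). Cdh13 had no read in the first set and entered the test through its second-set level, so its upward difference was built in. Cdh10, Cdh17 and Cdh19 also had no read in the first set, so the same holds for those of them that were tested. Of 18 large cadherins and cadherin-related genes 5 were higher and 1 lower (median 0.95). Clstn1 (3190 and 2880 against 7115, 7146 and 6437, adjusted p = 0.0043) and Fat1 (1229 and 779 against 3124, 3921 and 4684, adjusted p = 0.0044) were higher. Dchs1 (283 and 305 against 1777, 2397 and 2820, adjusted p = 0.0012) and Fat4 (101 and 262 against 1364, 2157 and 1276, adjusted p = 0.0050), which bind each other in planar polarity, were both higher. The 1 lower gene was Cdhr3, with 80.3 and 93.2 in the first set and no read in the second. Cdhr3 entered the test through its first-set level, so its downward difference was built in. Dsc3 had no read in the first set, so its upward difference was built in. Between the labels no gene of any of the 5 lists passed.

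Markers of several cell types moved with the sets, beside 9.88% higher and 10.6% lower over all genes tested. Leukocyte and macrophage markers were lower in the second set in 15 of 15 genes tested, with none at 0 in either set. Higher in the second set were 11 of 12 stromal and fibroblast markers (summed 20081 to 24454 in the first set and 134726 to 254671 in the second), 9 of 10 smooth muscle markers (4545 to 6546 and 24918 to 134383), 10 of 10 endothelial markers, 6 of 8 podocyte markers (10033 to 15362 and 43096 to 349908) and 2 of 7 nephron progenitor markers. Neuronal markers are of interest because neurons are the usual source of clustered protocadherins. They summed to 250 to 474 in the first set and 470 to 604 in the second, and 0 of 9 passed. All 9 had a log2 difference above 0 (median 0.91), against 53.5% of all genes (median 0.07). Of 6 glial markers 2 were higher, and 0 of 8 passed for proximal tubule, collecting duct and urothelium alike. In sorted bulk cells, fewer cells of a type and less RNA per cell cannot be told apart, and the part of these cell types in the protocadherin differences was not tested.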

How the data were processed

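RNA from sorted cells was turned into cDNA libraries with Clontech and Nextera XT kits, per the labels' protocols. Per the submitters' processing notes, the build was mm10 and the tools include TopHat2 2.0.11, HTSeq 0.6.1p2 and DESeq 1.18.0. Neither the counting mode nor the annotation is stated there. The table deposited by the authors gives a signal per gene, that is, read counts scaled by a size factor per library. The authors also deposited, for 2 unnamed sets of libraries, a fold change as a ratio of means, its log2 value and a p-value with its adjusted form. In every library 100% of the values came out as whole reads (tolerance 0.01). The 3 summary rows were left out; reads without a gene were 8.58% to 14.0% and reads not uniquely placed 13.5% to 18.7%.

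The test was limma 3.58.1 (R 4.3.3, trend) on log2(value + 1) for genes with a mean of at least 5, fitted over the whole table for each comparison, with Benjamini-Hochberg adjustment. edgeR 4.0.16 (quasi-likelihood) and DESeq2 1.42.0 were run on the recovered reads. Other alternatives were a pseudocount of 0.5 or 5, no filter or a minimum mean of 20, TMM scaling and leaving out each library. The fits were tested on simulated data. Gene models were GENCODE M21, and 60 of the 62 members matched one. Every pair of libraries differed beyond counting noise (lowest chi-square divided by its degrees of freedom, 98.3).

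Members described singly were all genes outside the clusters, the 5 with the highest mean in each cluster, the C-type genes and every member that passed. Pcdhb6, Pcdhb11, Pcdhb14, Pcdhb15, Pcdhga3, Pcdhga5, Pcdhga7, Pcdhga8, Pcdhgb1 and Pcdhgb5 were added after their values had been seen. Also named were, of each companion list, up to 4 passing genes by p, or otherwise the 2 with the smallest p. Nckap1 and Cdhr3 were added after their values had been seen. Wasf3, Dsc3, Cdh10, Cdh17 and Cdh19 were named for having no read in the first set. The rows, lists and tests were chosen with earlier results of these data known. Replicate numbers in the labels were not taken to pair libraries.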

Additional observations from a re-analysis of the deposited data

How the results depend on the processing

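The count of protocadherins called between the sets, 19 by limma, was 11 by edgeR, and 7 to 27 with 1 library left out. For clustered members, 13 became 7 by edgeR and 5 to 23 with a library left out; for the others, 6 became 1 to 4. With a first-set library left out, the lone library of that set is assumed to vary like the rest. Over the other settings run the total was 19 to 26. Between the labels no member passed under any setting, and the replicate block (numbers 1 and 2 of the labels) also called 0. Same-numbered libraries deviated from their label means in opposite directions (correlation -0.53 and -0.69). With 2 HCN3-positive libraries their deviations mirror each other, so these values cannot tell whether same-numbered libraries share a pool or sort.

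Directions of the genes below turned only with 1 library left out. Between the labels the log2 differences ranged from -4.11 to 0.92 for Pcdh18, -7.31 to 1.18 for Pcdh9, -3.95 to 0.43 for Pcdhgc3 and -7.59 to 0.19 for Pcdhb17, and were above 0 without HCN3-positive 1. Between the sets they ranged from -0.18 to 0.78 for Pcdhb19 and from -1.88 to 0.22 for Pcdhgb1, neither of which had passed. edgeR ended the calls of Pcdh8, Pcdh20, Pcdhb9, Pcdhb17, Pcdhga11, Pcdhgb2, Pcdhgb7 and Pcdhgb8, and a pseudocount of 0.5 that of Pcdhga11; the cause was not tested. Pcdh9 and Pcdhgc4 passed with a pseudocount of 5 (limma adjusted p = 0.0313 and 0.0309) and by DESeq2 (0.0466 and 0.0375). Pcdhb11, Pcdhb15, Pcdhga3, Pcdhga8 and Pcdhgb5, not called by limma in the main fit, also passed by DESeq2 (adjusted p = 0.0381, 0.0111, 0.0413, 0.0374 and 0.0459). With 1 library left out the median of clustered members ran from 2.30 to 4.42 between the sets and from -3.86 to 0.43 between the labels, and that of the others from 2.33 to 2.98 and from -1.86 to 0.91. A count of 0 allows up to 4.23 normalized counts in HCN3-positive 1, which had the fewest reads, and 2.23 to 3.33 in the other libraries.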

Other observations

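Genes next to the clusters on chromosome 18 were also followed between the sets. Within 500 kb on each side of the clusters (GENCODE M21, mm10), the table held 27 genes that are not protocadherins, and 25 were tested. None of the 25 was higher in the second set and 3 were lower, beside 9.88% higher and 10.6% lower over all genes. Their median log2 difference was -0.03, with 11 above 0. Pcdh1 and Pcdh12 also lie in this window but were left out as protocadherins. Both were called higher in the second set (limma adjusted p = 0.0242 and 0.0180). Taf7, a general transcription factor gene that lies between the beta and gamma clusters, had 634 and 592 normalized counts in HCN3-positive 1 and HCN3-negative 2 and 721, 581 and 757 in HCN3-positive 2, HCN3-negative 1 and HCN3-negative 3 (log2 difference 0.15, SE 0.29, limma adjusted p = 0.759). The histone deacetylase gene Hdac3, just beyond the gamma cluster, had 3375 and 3901 against 4956, 4060 and 4629 (limma adjusted p = 0.281). The 3 lower genes were Cd14, a macrophage receptor (1434 and 3428 against 31.9, 35.6 and 23.3), Gnpda1, an enzyme of amino sugar breakdown (9378 and 12004 against 2604, 3025 and 2841), and Slc4a9, a bicarbonate exchanger of intercalated cells (9165 and 1286 against 372, 668 and 316). The window was chosen after the protocadherin values had been seen, and the neighbours were not compared with the clusters by a test.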
